A study of Mus musculus with 12 samples.

Results

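The NF-kB pathway was followed through 39 of the 22298 genes named in the count table, chosen by gene symbol. They were the 5 subunits of the transcription factor, 6 genes of the IkB family, 5 genes grouped as upstream kinases, 11 adaptors, 3 ubiquitin brakes, a ligand with 3 receptors, and 5 effector targets. The IkB family holds nuclear cofactors beside inhibitors. The kinase group includes Ikbkg, which encodes NEMO, a subunit of the kinase complex that is not itself a kinase. RNA was sequenced from 4T1 cells, a mouse mammary carcinoma line of BALB/c origin, that carried either of 2 guide RNAs against Cop1 (sgRNA1 or sgRNA2) or a guide against the Rosa26 locus, where cutting is not thought to disturb the cell. Cop1 is an E3 ubiquitin ligase that marks transcription factors for degradation. Cells of each guide received IFNγ at 20 ng/ml for 24 hours or vehicle. The labels give that dose and time in the protocol of every sample, vehicle ones included, so IFNγ and vehicle were told apart by the titles and the treatment label. The 6 groups were Cop1 sgRNA1 with IFNγ, Cop1 sgRNA2 with IFNγ, Rosa26 with IFNγ, Cop1 sgRNA1 in vehicle, Cop1 sgRNA2 in vehicle and Rosa26 in vehicle, with 2 libraries each. Whether a guide population was a clone or a pool is not given in the sources used here, and Rosa26 stands for the control in 1 population only. The labels do not say whether the libraries of a group came from separate cultures, so p-values measure the spread between these libraries, which may be technical.

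NF-kB proteins are dimers of the Rel family that IkB proteins hold in the cytoplasm. Signals from receptors such as those for TNF and CD40 reach the IkB kinase complex through TRAF, RIPK and cIAP adaptors, the kinase marks IkB for destruction, and the freed dimers raise transcription of inflammatory, survival and adhesion genes. Their targets include the pathway's own subunits, inhibitors and ubiquitin-editing brakes, which forms feedback loops. IFNγ acts through a pathway of its own, many of whose target genes carry GAS elements, and its targets overlap with those of NF-kB.

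Promoter windows from 250 bases before to 50 bases after a start site were taken from RefSeq (GRCm38.p6) for 31 of the 39 genes. They were searched on both strands for the kappaB consensus, the binding motif of NF-kB dimers, and for the GAS consensus TTCNNNGAA. The kappaB consensus was present in 13 of the 31 genes (41.9%), against 5.14% of all 27025 genes with a window. The list was made of NF-kB components and known targets, so a higher share can follow from the choice of genes. The 31 genes also had more windows each, 44 in all, against 32851 for the 27025 genes. The GAS consensus was present in 9 of the 31 (29.0%), against 9.55% of all genes. The bases before the start site are shown for Nfkb2, Nfkbia, Tnfaip3 and Tnip1, a subunit, an inhibitor and both parts of a ubiquitin-editing brake with kappaB matches, and for Icam1, which had the largest IFNγ response of the 39 genes and holds a GAS match. Shorter stretches around the match are shown for 6 more genes that were lower in IFNγ-treated Cop1-loss cells. These sequences were chosen after the values were seen. They lie at chr19:46304487-46304736 (+ strand) for Nfkb2, chr12:55492648-55492897 (- strand) for Nfkbia, chr10:19015411-19015660 (- strand) for Tnfaip3, chr11:54962941-54963190 (- strand) for Tnip1 and chr9:21015690-21015939 (+ strand) for Icam1. The shorter ones lie at chr11:23771036-23771076 (- strand) for Rel, chr17:45555579-45555618 (+ strand) for Nfkbie, chr17:13007741-13007780 (+ strand) for Sod2, chr3:145924012-145924045 (+ strand) for Bcl10, chr2:61593010-61593049 (+ strand) for Tank and chr8:88696858-88696897 (+ strand) for Cyld. Each is written 5′ to 3′ on the gene's strand, and capitals mark the kappaB match, or the GAS match in Icam1.
Nfkb2: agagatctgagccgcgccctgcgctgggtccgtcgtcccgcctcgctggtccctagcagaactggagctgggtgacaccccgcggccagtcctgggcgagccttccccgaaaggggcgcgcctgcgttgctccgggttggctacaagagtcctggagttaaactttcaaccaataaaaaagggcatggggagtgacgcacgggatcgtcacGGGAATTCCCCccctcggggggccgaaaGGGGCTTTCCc
Nfkbia: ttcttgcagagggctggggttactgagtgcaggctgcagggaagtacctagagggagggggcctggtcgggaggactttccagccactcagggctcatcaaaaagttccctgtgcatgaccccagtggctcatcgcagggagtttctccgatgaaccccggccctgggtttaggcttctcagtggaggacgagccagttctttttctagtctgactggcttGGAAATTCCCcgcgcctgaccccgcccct
Tnfaip3: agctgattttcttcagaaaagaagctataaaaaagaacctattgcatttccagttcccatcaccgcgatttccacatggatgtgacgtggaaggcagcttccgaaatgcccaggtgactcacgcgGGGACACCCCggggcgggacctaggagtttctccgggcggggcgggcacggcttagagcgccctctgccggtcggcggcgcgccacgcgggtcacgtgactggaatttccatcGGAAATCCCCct
Tnip1: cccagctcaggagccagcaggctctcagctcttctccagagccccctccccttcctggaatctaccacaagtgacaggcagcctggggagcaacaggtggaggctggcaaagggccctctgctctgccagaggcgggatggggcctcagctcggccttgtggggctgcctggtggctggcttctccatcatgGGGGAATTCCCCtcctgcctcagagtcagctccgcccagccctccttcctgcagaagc
Icam1: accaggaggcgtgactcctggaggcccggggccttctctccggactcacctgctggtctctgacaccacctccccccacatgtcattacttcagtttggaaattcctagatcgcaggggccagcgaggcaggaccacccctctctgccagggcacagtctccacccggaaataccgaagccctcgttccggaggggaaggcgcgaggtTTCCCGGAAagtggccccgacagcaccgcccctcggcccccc
Rel: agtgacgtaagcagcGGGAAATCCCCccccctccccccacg
Nfkbie: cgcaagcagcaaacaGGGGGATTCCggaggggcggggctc
Sod2: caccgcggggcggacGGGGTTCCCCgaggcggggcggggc
Bcl10: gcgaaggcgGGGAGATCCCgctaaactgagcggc
Tank: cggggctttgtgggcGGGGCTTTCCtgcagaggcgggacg
Cyld: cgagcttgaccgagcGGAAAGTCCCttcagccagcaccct

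In Nfkb2, matches to the kappaB consensus began 39 and 11 bases before the first of its 3 start sites, and that in Nfkbia began 29 bases before its start site. The 13 genes held 18 distinct matched stretches in all, none of which overlapped a GAS match. Of the genes with a match 11 of 13 were lower in IFNγ-treated Cop1-loss cells, and of those without one 11 of 18. The share of all genes tested that were called lower there was 20.7%. The difference between the counts was not tested, and the share among all genes with a match was not taken. The 8 genes without a window are in neither count, and most of them were lower too. A match is a stretch of letters, not a measured binding site.

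**Figure D1:**
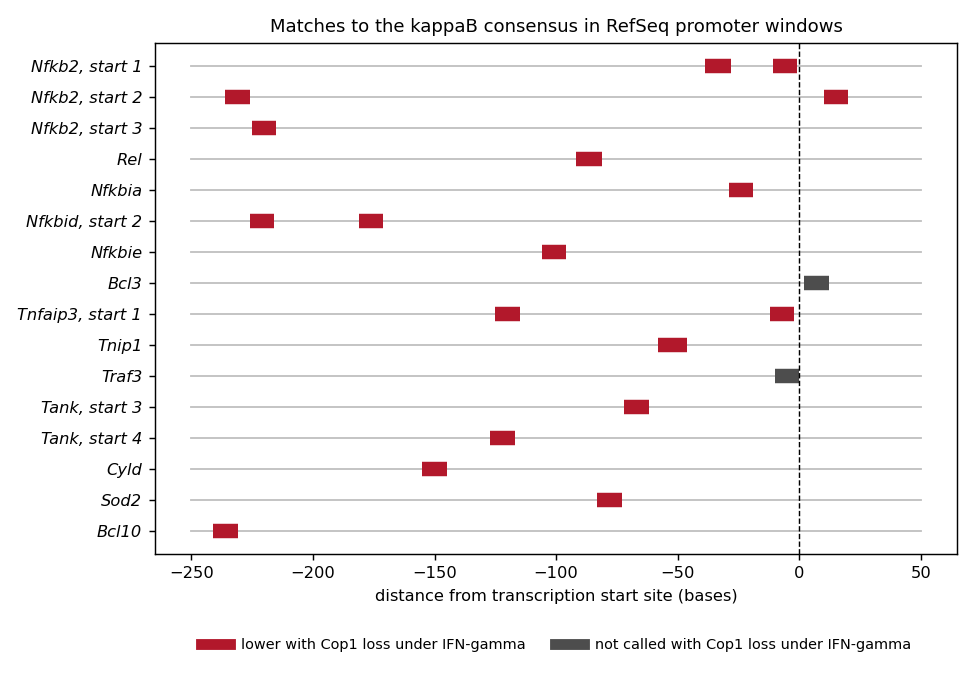
Position of each kappaB match (blocks) in the windows of the 13 genes that hold one, in bases from the start site, with red for genes called lower in Cop1-loss cells under IFNγ and grey for genes not called. Genes with several start sites have a line for each window that holds a match, so a match that 2 windows share is drawn in both, as in Tank, and most matches lie before the start site.

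Libraries held 19378070 to 32609717 counts in genes, and all 39 genes passed the low-count filter that left 11904 genes. Levels are given in CPM, the library-size-scaled count, with TMM scaling. Cop1 itself was at 60.7 and 60.2 CPM with sgRNA1 and 32.3 and 33.6 CPM with sgRNA2, against 80.4 and 83.3 CPM in Rosa26 cells under IFNγ, and at 59.1 and 63.1 CPM with sgRNA1 and 34.5 and 34.7 CPM with sgRNA2, against 89.7 and 98.2 CPM in Rosa26 cells in vehicle. Every Cop1-guide library was below every Rosa26 library (log2 change -0.88 ± 0.05, adjusted p = 2.34e-18 under IFNγ and -1.03 ± 0.05, adjusted p = 6.01e-21 in vehicle), and transcript remained, more with sgRNA1 than with sgRNA2. Of 8 epithelial markers 7 were above 10 CPM in mean level and Krt5 had no count. Among the leukocyte markers Cd3e and Adgre1 had no count, and Ptprc stayed at or under 0.26 CPM. The summed leukocyte markers, mostly Cd68 at 6.25 to 12.3 CPM, were at 7.62 to 8.82 CPM in Cop1-loss against 11.1 to 12.8 CPM in Rosa26 libraries under IFNγ, and at 7.02 to 8.46 CPM in Cop1-loss against 9.77 to 11 CPM in Rosa26 libraries in vehicle. The summed epithelial markers were at 2650 to 2700 CPM in Cop1-loss against 2290 CPM in Rosa26 libraries under IFNγ, and at 3200 to 3240 CPM in Cop1-loss against 2900 to 2970 CPM in Rosa26 libraries in vehicle. The part of either in the results was not tested. In bulk RNA, fewer cells of a type and less RNA per cell cannot be told apart.

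Cop1 loss under IFNγ was accompanied by lower RNA of most of the pathway. Of the 39 genes, 28 were lower and 1, Ripk1, was higher than in IFNγ-treated Rosa26 cells (edgeR quasi-likelihood test, adjusted p under 0.05), where 20.7% of all genes tested were called lower and 19.8% higher. Changes were small: the median log2 change of the 39 genes was -0.25, against -0.00 over all genes, and 5 genes (Rel, Nfkbie, Cd40, Tnf and Icam1) were lower by at least 1.5-fold, as were 4.02% of all genes. In 28 of the 39 genes all 4 Cop1-loss libraries were below both Rosa26 libraries, as in 24.7% of all genes. In vehicle the same contrast called 14 genes lower and 2 higher, against 19.2% and 16.6% of all genes. There the median was -0.09, against -0.01 over all genes, and no member reached 1.5-fold, as 3.37% of all genes did downward and 1.36% upward. The 13 genes Nfkb1, Nfkb2, Rela, Relb, Rel, Nfkbie, Tnip1, Traf1, Traf2, Tank, Map3k14, Cyld and Ripk2 were lower both with IFNγ and in vehicle, as were 12.7% of all genes.

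A further 15 genes were lower under IFNγ and not lower in vehicle, against 8.06% of all genes. Of these 13 were not called in vehicle (Nfkbia, Nfkbib, Nfkbid, Nfkbiz, Birc3, Chuk, Tnfrsf1b, Cd40, Tnf, Icam1, Vcam1, Sod2 and Bcl10), and Tnfaip2 and Tnfaip3 were higher in vehicle, a combination that 0.252% of all genes had. A missing call in vehicle is not a test that the treatments differ. By the direct test of that difference, given below, Nfkbid, Birc3, Chuk, Tnfrsf1b, Cd40, Tnf, Icam1 and Vcam1 were not called. In Birc3, Tnfrsf1b, Icam1 and Vcam1 all Cop1-guide libraries were below Rosa26 in vehicle too. Traf3 was lower in vehicle only by the calls. The plot of both Cop1 comparisons shows each gene. With the 2 libraries of a population summed, so that the spread came from the guides, 17 genes were called under IFNγ, all lower (Nfkb2, Rela, Relb, Rel, Nfkbia, Nfkbib, Nfkbie, Nfkbiz, Tnip1, Birc3, Traf1, Traf2, Tank, Ripk2, Cd40, Icam1 and Sod2), and 3 in vehicle (Nfkbie, Tnip1 and Tank). Under that setting Cop1 was not called either (adjusted p = 0.395 under IFNγ and 0.342 in vehicle).

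**Figure D2:**
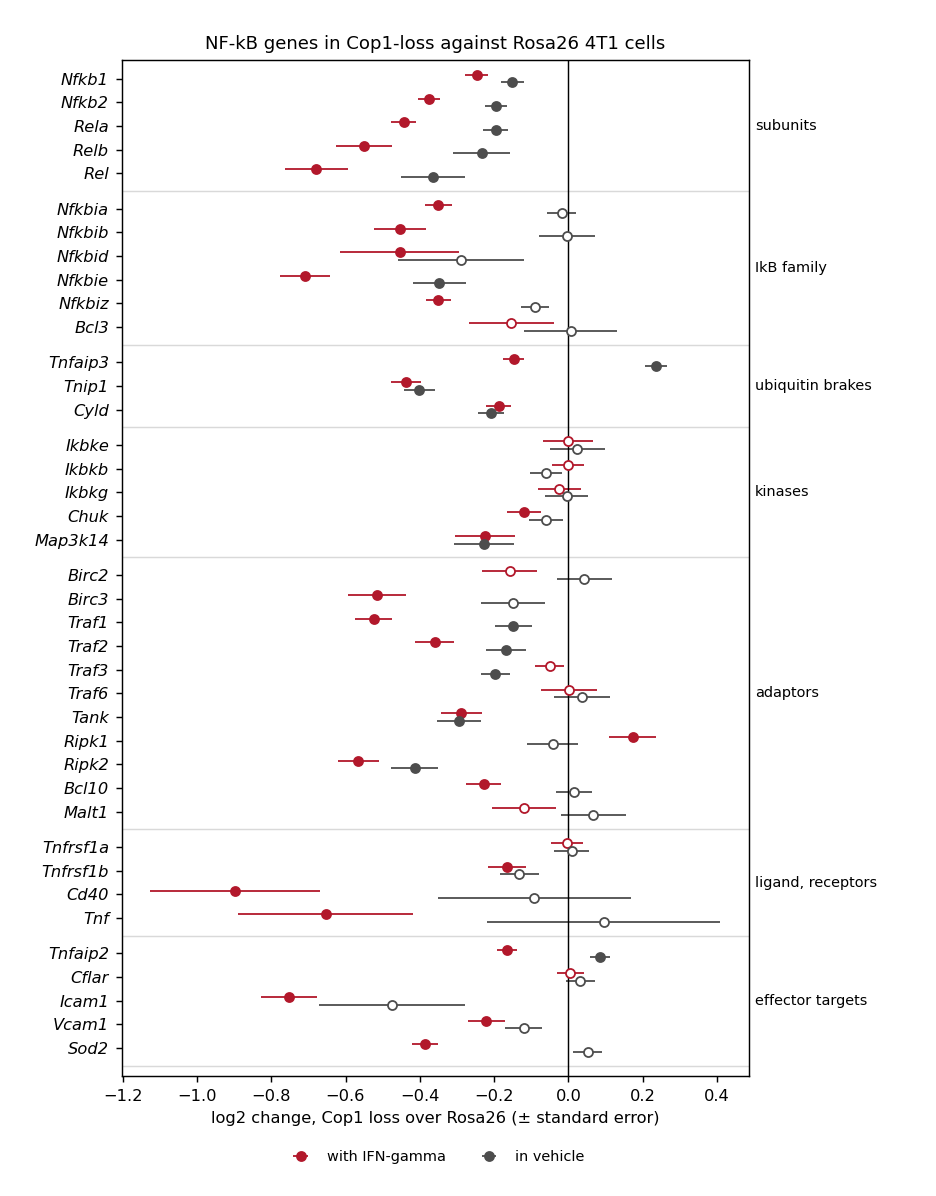
Log2 change of each gene in Cop1-loss over Rosa26 cells (x axis, points with standard error bars), with IFNγ in red and in vehicle in grey, grouped by role, filled where called and open where not. Under IFNγ 36 of 39 points lie left of 0, against 27 of 39 in vehicle.

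All 5 subunits were lower in Cop1-loss cells under IFNγ (median -0.44) and in vehicle (median -0.20), beside 20.7% and 19.2% of all genes. Rela, the main transactivating subunit, was at 125 and 126 CPM with sgRNA1 and 128 and 129 CPM with sgRNA2, against 171 and 174 CPM in Rosa26 cells under IFNγ. In vehicle Rela was at 121 and 122 CPM with sgRNA1 and 124 and 128 CPM with sgRNA2, against 143 and 140.4 CPM in Rosa26 cells. Every Cop1-guide library was below every Rosa26 library in both treatments, with a wider gap under IFNγ (log2 change -0.44 ± 0.03, adjusted p = 1.12e-14) than in vehicle (-0.20 ± 0.03, adjusted p = 8.46e-06). Nfkb2, the p100 precursor of p52 and the core of the noncanonical arm, was at 232 and 233 CPM with sgRNA1 and 240.1 and 242 CPM with sgRNA2, against 301 and 313 CPM in Rosa26 cells under IFNγ, and at 226 and 217 CPM with sgRNA1 and 231 and 239 CPM with sgRNA2, against 265 and 258 CPM in Rosa26 cells in vehicle. Its changes were -0.38 ± 0.03, adjusted p = 2.13e-14 and -0.20 ± 0.03, adjusted p = 5.43e-07, with no overlap of the groups. Nfkb1, which encodes p105 and p50, was at 164 and 159 CPM with sgRNA1 and 182 and 181 CPM with sgRNA2, against 201 and 205 CPM in Rosa26 cells under IFNγ, and at 144 and 149 CPM with sgRNA1 and 153 and 157 CPM with sgRNA2, against 166 and 169 CPM in Rosa26 cells in vehicle. It had the smallest change of the subunits under IFNγ (-0.25 ± 0.03, adjusted p = 1.45e-08), and -0.15 ± 0.03, adjusted p = 0.000181 in vehicle, again without overlap.

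Rel, the c-Rel subunit best known from lymphocytes, was at 13.4 and 14.9 CPM with sgRNA1 and 18.3 and 16.0 CPM with sgRNA2, against 25.1 and 24.8 CPM in Rosa26 cells under IFNγ. In vehicle it was at 14.2 and 15.6 CPM with sgRNA1 and 16.2 and 15.5 CPM with sgRNA2, against 20.5 and 18.9 CPM in Rosa26 cells. Rel was the subunit with the largest change, at 62.5% of the Rosa26 level under IFNγ (log2 change -0.68 ± 0.08, adjusted p = 1.14e-08) and 77.7% in vehicle (-0.36 ± 0.09, adjusted p = 0.000864), and the groups did not overlap. Relb, the partner of p52, was at 18.5 and 20.9 CPM with sgRNA1 and 23.6 and 23.3 CPM with sgRNA2, against 33.7 and 29.2 CPM in Rosa26 cells under IFNγ. In vehicle Relb was at 21.4 and 20.2 CPM with sgRNA1 and 23.4 and 24.2 CPM with sgRNA2, against 27.6 and 24.7 CPM in Rosa26 cells, where the highest sgRNA2 library lay just below the lowest Rosa26 library. Its change was -0.55 ± 0.08, adjusted p = 1e-07 under IFNγ and -0.23 ± 0.08, adjusted p = 0.0151 in vehicle. The vehicle call of Relb was lost without Rosa26 vehicle replicate 1 (adjusted p = 0.293) and by DESeq2 (adjusted p = 0.0603).

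Of the 6 IkB family genes 5 were lower under IFNγ (median -0.40) and 1 in vehicle (median -0.05), beside 20.7% and 19.2% of all genes. The vehicle count was close to that share. Nfkbia, which encodes IkBα, the fast feedback inhibitor, was at 145 and 144 CPM with sgRNA1 and 145 and 134 CPM with sgRNA2, against 178 and 184 CPM in Rosa26 cells under IFNγ. In vehicle Nfkbia was at 103 and 104 CPM with sgRNA1 and 97.3 and 93.9 CPM with sgRNA2, against 102 and 98.7 CPM in Rosa26 cells, where the groups overlapped. It was lower under IFNγ (-0.35 ± 0.04, adjusted p = 6.89e-11) and not called in vehicle (-0.02 ± 0.04, adjusted p = 0.748). Nfkbib, encoding IkBβ, was at 26.7 and 27.6 CPM with sgRNA1 and 28.5 and 27.8 CPM with sgRNA2, against 39.6 and 36.1 CPM in Rosa26 cells under IFNγ, and at 23.1 and 24.4 CPM with sgRNA1 and 25.2 and 21.0 CPM with sgRNA2, against 23.3 and 23.6 CPM in Rosa26 cells in vehicle. The groups were apart under IFNγ (-0.45 ± 0.07, adjusted p = 9.19e-07) and overlapped in vehicle (-0.00 ± 0.08, adjusted p = 0.976). Nfkbie, encoding IkBε, was at 25.8 and 24.3 CPM with sgRNA1 and 27.0 and 25.7 CPM with sgRNA2, against 39.9 and 44.1 CPM in Rosa26 cells under IFNγ, and at 21.7 and 23.0 CPM with sgRNA1 and 20.6 and 22.4 CPM with sgRNA2, against 28.9 and 26.8 CPM in Rosa26 cells in vehicle. It was the family member with the largest change, at 61.2% of the Rosa26 level under IFNγ (-0.71 ± 0.07, adjusted p = 1.28e-11), and it was lower in vehicle too (-0.35 ± 0.07, adjusted p = 0.000151).

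Nfkbiz, encoding the nuclear cofactor IkBζ, was at 158 and 159 CPM with sgRNA1 and 166 and 170.0 CPM with sgRNA2, against 209.9 and 206 CPM in Rosa26 cells under IFNγ. In vehicle Nfkbiz was at 82.3 and 84.5 CPM with sgRNA1 and 86.1 and 92.0 CPM with sgRNA2, against 91.5 and 91.9 CPM in Rosa26 cells, where the groups overlapped. It was lower under IFNγ (-0.35 ± 0.03, adjusted p = 1.22e-11) and was not called in vehicle (-0.09 ± 0.04, adjusted p = 0.0574), except without Cop1 sgRNA2 vehicle replicate 2 (adjusted p = 0.0225). Nfkbid, encoding the nuclear IkBNS, was called lower under IFNγ at levels of 4.31 to 6.70 CPM (-0.45 ± 0.16, adjusted p = 0.0205). That call was lost by DESeq2 (0.0692) and without Rosa26 IFNγ replicate 1 (adjusted p = 0.111), Rosa26 IFNγ replicate 2 (0.0902), sgRNA1 IFNγ replicate 1 (0.0772) or sgRNA2 IFNγ replicate 1 (0.0649). Bcl3, a nuclear partner of p50 and p52, was not called in either comparison (-0.15 ± 0.11 under IFNγ and 0.01 ± 0.13 in vehicle).

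The ubiquitin brakes did not move alike. Tnfaip3 encodes A20, the ubiquitin-editing enzyme that shuts down signalling, and was at 236 and 234 CPM with sgRNA1 and 262 and 265 CPM with sgRNA2, against 275 and 276 CPM in Rosa26 cells under IFNγ. In vehicle Tnfaip3 was at 184 and 188 CPM with sgRNA1 and 196 and 194 CPM with sgRNA2, against 162 and 161 CPM in Rosa26 cells. All Cop1-guide libraries were thus below Rosa26 under IFNγ (-0.15 ± 0.03, adjusted p = 2.87e-05) and above it in vehicle (0.23 ± 0.03, adjusted p = 1.49e-08). Tnip1, encoding the A20 partner ABIN1, was at 94.3 and 94.7 CPM with sgRNA1 and 97.9 and 93.8 CPM with sgRNA2, against 125 and 133 CPM in Rosa26 cells under IFNγ, and at 71.6 and 76.8 CPM with sgRNA1 and 77.3 and 76.2 CPM with sgRNA2, against 97.7 and 101 CPM in Rosa26 cells in vehicle. It was lower in both treatments (-0.44 ± 0.04, adjusted p = 6.55e-12 and -0.40 ± 0.04, adjusted p = 2.43e-10). Cyld, a deubiquitinase that opposes the pathway, was at 134 and 136 CPM with sgRNA1 and 140.1 and 143 CPM with sgRNA2, against 156 and 159 CPM in Rosa26 cells under IFNγ, and at 104 and 104 CPM with sgRNA1 and 109 and 109 CPM with sgRNA2, against 123 and 123 CPM in Rosa26 cells in vehicle. Its libraries did not overlap either, with log2 changes of -0.19 ± 0.03, adjusted p = 1.5e-05 and -0.21 ± 0.03, adjusted p = 5.64e-06.

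Of the 5 genes in the kinase group 2 were called lower under IFNγ (median -0.02) and 1 in vehicle (median -0.06). Over all genes 20.7% and 19.2% were called lower, so the vehicle count was close to the background. Map3k14 encodes NIK, the kinase of the noncanonical arm, and was at 19.2 and 20.8 CPM with sgRNA1 and 22.3 and 21.2 CPM with sgRNA2, against 23.1 and 25.7 CPM in Rosa26 cells under IFNγ. In vehicle Map3k14 was at 19.5 and 17.3 CPM with sgRNA1 and 21.0 and 21.1 CPM with sgRNA2, against 24.8 and 21.3 CPM in Rosa26 cells. The groups were apart in both treatments by a narrow margin (-0.22 ± 0.08, adjusted p = 0.0236 and -0.23 ± 0.08, adjusted p = 0.0255). Single libraries decided both calls of Map3k14. Under IFNγ the adjusted p was 0.315 without Rosa26 IFNγ replicate 2, 0.0802 without sgRNA1 IFNγ replicate 1, 0.0558 without sgRNA2 IFNγ replicate 2 and 0.08 by DESeq2. In vehicle it was 0.49 without Rosa26 vehicle replicate 1, 0.0879 without sgRNA1 vehicle replicate 2 and 0.0901 by DESeq2. Chuk, encoding IKKα, was called lower under IFNγ (-0.12 ± 0.05, adjusted p = 0.0319), but its groups overlapped. The call of Chuk was lost without Rosa26 IFNγ replicate 1 (adjusted p = 0.296), sgRNA1 IFNγ replicate 1 (0.0708) or sgRNA2 IFNγ replicate 1 (0.144), and by DESeq2 (0.087). Ikbkb (IKKβ), Ikbkg (NEMO) and Ikbke (IKKε) were called in neither comparison, and Ikbkg had -0.02 ± 0.06, adjusted p = 0.774 under IFNγ.

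Of the 11 adaptors 6 were lower and 1 higher under IFNγ (median -0.23), and 5 were lower in vehicle (median -0.15). Over all genes 20.7% were lower and 19.8% higher under IFNγ, and 19.2% were lower in vehicle. Traf1, a signal adaptor and a classical NF-kB target, was at 55.9 and 50.7 CPM with sgRNA1 and 49.8 and 53.8 CPM with sgRNA2, against 73.9 and 77.2 CPM in Rosa26 cells under IFNγ. In vehicle Traf1 was at 59.0 and 56.9 CPM with sgRNA1 and 56.6 and 59.9 CPM with sgRNA2, against 65.2 and 63.7 CPM in Rosa26 cells. The groups were far apart under IFNγ (-0.52 ± 0.05, adjusted p = 1.56e-11) and close in vehicle (-0.15 ± 0.05, adjusted p = 0.019). Traf2, an adaptor of TNF receptors, was at 43.8 and 43.3 CPM with sgRNA1 and 46.5 and 45.9 CPM with sgRNA2, against 58.2 and 56.9 CPM in Rosa26 cells under IFNγ, and at 44.9 and 40.6 CPM with sgRNA1 and 43.8 and 44.8 CPM with sgRNA2, against 49.3 and 48.8 CPM in Rosa26 cells in vehicle. Its log2 changes were -0.36 ± 0.05, adjusted p = 4.06e-07 and -0.17 ± 0.05, adjusted p = 0.0122. The vehicle calls of both were fragile. That of Traf1 was lost by DESeq2 (adjusted p = 0.0694) and without Rosa26 vehicle replicate 1 (0.152) or 2 (0.0653), sgRNA1 vehicle replicate 2 (0.0507) or sgRNA2 vehicle replicate 1 (0.0622). That of Traf2 was lost without Rosa26 vehicle replicate 1 (0.0948) or 2 (0.0612) or sgRNA1 vehicle replicate 2 (0.0606).

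Ripk2, the kinase adaptor of NOD receptors, was at 40.8 and 43.9 CPM with sgRNA1 and 49.5 and 47.6 CPM with sgRNA2, against 67.7 and 66.6 CPM in Rosa26 cells under IFNγ. In vehicle Ripk2 was at 24.0 and 21.6 CPM with sgRNA1 and 25.5 and 26.3 CPM with sgRNA2, against 31.9 and 33.1 CPM in Rosa26 cells. It was clearly separated in both treatments, at 67.6% of the Rosa26 level under IFNγ (-0.57 ± 0.05, adjusted p = 2.12e-11) and 75.1% in vehicle (-0.41 ± 0.06, adjusted p = 1.12e-06). Tank, a TRAF-binding adaptor, was at 40.2 and 42.4 CPM with sgRNA1 and 43.2 and 40.9 CPM with sgRNA2, against 51.0 and 50.8 CPM in Rosa26 cells under IFNγ, and at 34.6 and 32.8 CPM with sgRNA1 and 33.4 and 34.4 CPM with sgRNA2, against 43.0 and 40.1 CPM in Rosa26 cells in vehicle. Its log2 change was the same to 2 decimals in both treatments (-0.29 ± 0.06, adjusted p = 5.48e-05 and -0.29 ± 0.06, adjusted p = 8.22e-05). Bcl10, which links antigen and other receptors to the IkB kinases, was at 72.4 and 69.5 CPM with sgRNA1 and 72.1 and 73.8 CPM with sgRNA2, against 81.2 and 87.4 CPM in Rosa26 cells under IFNγ. In vehicle Bcl10 was at 62.9 and 69.6 CPM with sgRNA1 and 71.5 and 68.7 CPM with sgRNA2, against 68.2 and 66.2 CPM in Rosa26 cells, where the groups overlapped. It was lower under IFNγ (-0.23 ± 0.05, adjusted p = 0.000121) and not called in vehicle (0.02 ± 0.05, adjusted p = 0.832). Birc3, encoding cIAP2, was lower under IFNγ (-0.52 ± 0.08, adjusted p = 6.74e-07), and its paralog Birc2, encoding cIAP1, was not called (-0.16 ± 0.07, adjusted p = 0.0812).

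Ripk1, the kinase that steers TNF signalling between survival and death, was the 1 gene higher in Cop1-loss cells under IFNγ, at 53.9 and 47.7 CPM with sgRNA1 and 55.9 and 50.6 CPM with sgRNA2, against 45.1 and 47.3 CPM in Rosa26 cells (log2 change 0.17 ± 0.06, adjusted p = 0.025). The lowest sgRNA1 library lay close to the higher Rosa26 library. The call of Ripk1 was lost by DESeq2 (adjusted p = 0.0865) and without Rosa26 IFNγ replicate 1 (0.212), Rosa26 IFNγ replicate 2 (0.0541), sgRNA1 IFNγ replicate 1 (0.141) or sgRNA2 IFNγ replicate 1 (0.121). Traf3, the brake on NIK, was lower in vehicle (-0.20 ± 0.04, adjusted p = 8.19e-05) and not called under IFNγ (-0.05 ± 0.04, adjusted p = 0.326). Traf6 and Malt1 were called in neither comparison.

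The ligand Tnf was low, with 22 to 99 counts per library. Under IFNγ Tnf was at 2.65 and 2.22 CPM with sgRNA1 and 2.49 and 2.42 CPM with sgRNA2, against 4.22 and 3.47 CPM in Rosa26 cells. In vehicle Tnf was at 0.981 and 1.83 CPM with sgRNA1 and 1.06 and 1.21 CPM with sgRNA2, against 1.21 and 1.11 CPM in Rosa26 cells, where the groups overlapped. It was called lower under IFNγ (-0.65 ± 0.24, adjusted p = 0.0233) and not in vehicle (0.09 ± 0.31, adjusted p = 0.85). The IFNγ call of Tnf was lost without Rosa26 IFNγ replicate 1 (adjusted p = 0.23) or sgRNA1 IFNγ replicate 2 (0.0672), and by DESeq2 (0.0829). Cd40, a receptor of the noncanonical arm, was also low and at 2.05 and 1.70 CPM with sgRNA1 and 2.13 and 2.21 CPM with sgRNA2, against 4.35 and 3.16 CPM in Rosa26 cells under IFNγ. Its groups were apart, with the largest fitted decrease of the 39 genes (-0.90 ± 0.23, adjusted p = 0.00144), but the call was lost without Rosa26 IFNγ replicate 1 (adjusted p = 0.101). Tnfrsf1b, encoding TNF receptor 2, was lower under IFNγ (-0.17 ± 0.05, adjusted p = 0.00831), a call lost without Rosa26 IFNγ replicate 2 (adjusted p = 0.141). In vehicle Tnfrsf1b stood at the threshold (adjusted p = 0.0502) and was called with a replicate block (adjusted p = 0.0494). Tnfrsf1a, encoding TNF receptor 1, was called in neither comparison (-0.00 ± 0.04 under IFNγ and 0.01 ± 0.05 in vehicle).

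Of the 5 effector targets 4 were lower under IFNγ (median -0.22), and in vehicle 1 was higher and none lower (median 0.03). Over all genes 20.7% were lower under IFNγ, and in vehicle 16.6% were higher and 19.2% lower. Icam1, an adhesion molecule that binds leukocyte integrins, was at 24.7 and 25.6 CPM with sgRNA1 and 27.3 and 29.3 CPM with sgRNA2, against 46.4 and 43.4 CPM in Rosa26 cells under IFNγ. In vehicle Icam1 was at 1.69 and 1.55 CPM with sgRNA1 and 1.44 and 1.43 CPM with sgRNA2, against 1.79 and 2.49 CPM in Rosa26 cells. Its level with Cop1 loss under IFNγ was 59.3% of that in Rosa26 cells (-0.75 ± 0.08, adjusted p = 5.76e-11). The groups did not overlap in vehicle either, where the test was not passed (-0.47 ± 0.20, adjusted p = 0.0559) except without Rosa26 vehicle replicate 1 (adjusted p = 0.0249). Sod2, the mitochondrial superoxide dismutase, was at 123 and 125 CPM with sgRNA1 and 112 and 108 CPM with sgRNA2, against 151 and 154 CPM in Rosa26 cells under IFNγ, and at 90.5 and 88.8 CPM with sgRNA1 and 89.1 and 85.8 CPM with sgRNA2, against 85.5 and 85.5 CPM in Rosa26 cells in vehicle. It was lower under IFNγ (-0.39 ± 0.04, adjusted p = 9.26e-12). In vehicle all Cop1-guide libraries were slightly above Rosa26 without passing the test (0.05 ± 0.04, adjusted p = 0.328).

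Tnfaip2, a TNF-induced gene, was at 420.2 and 426 CPM with sgRNA1 and 374 and 380.1 CPM with sgRNA2, against 442 and 454 CPM in Rosa26 cells under IFNγ. In vehicle Tnfaip2 was at 449 and 437 CPM with sgRNA1 and 379 and 393 CPM with sgRNA2, against 395 and 384 CPM in Rosa26 cells. Under IFNγ it was lower (-0.17 ± 0.03, adjusted p = 1.31e-06), and in vehicle it was called higher (0.09 ± 0.03, adjusted p = 0.0089) although only the sgRNA1 libraries stood above Rosa26. The vehicle call was lost without Rosa26 vehicle replicate 2 (adjusted p = 0.174). Vcam1, an adhesion molecule, was lower under IFNγ (-0.22 ± 0.05, adjusted p = 0.000422) and not called in vehicle (-0.12 ± 0.05, adjusted p = 0.059). It was called in vehicle without sgRNA1 vehicle replicate 1 (adjusted p = 0.0203) or sgRNA2 vehicle replicate 2 (0.0407). Cflar, encoding the caspase inhibitor c-FLIP, was called in neither comparison (0.00 ± 0.04 and 0.03 ± 0.04). The plot of levels by library shows 12 of the genes.

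**Figure D3:**
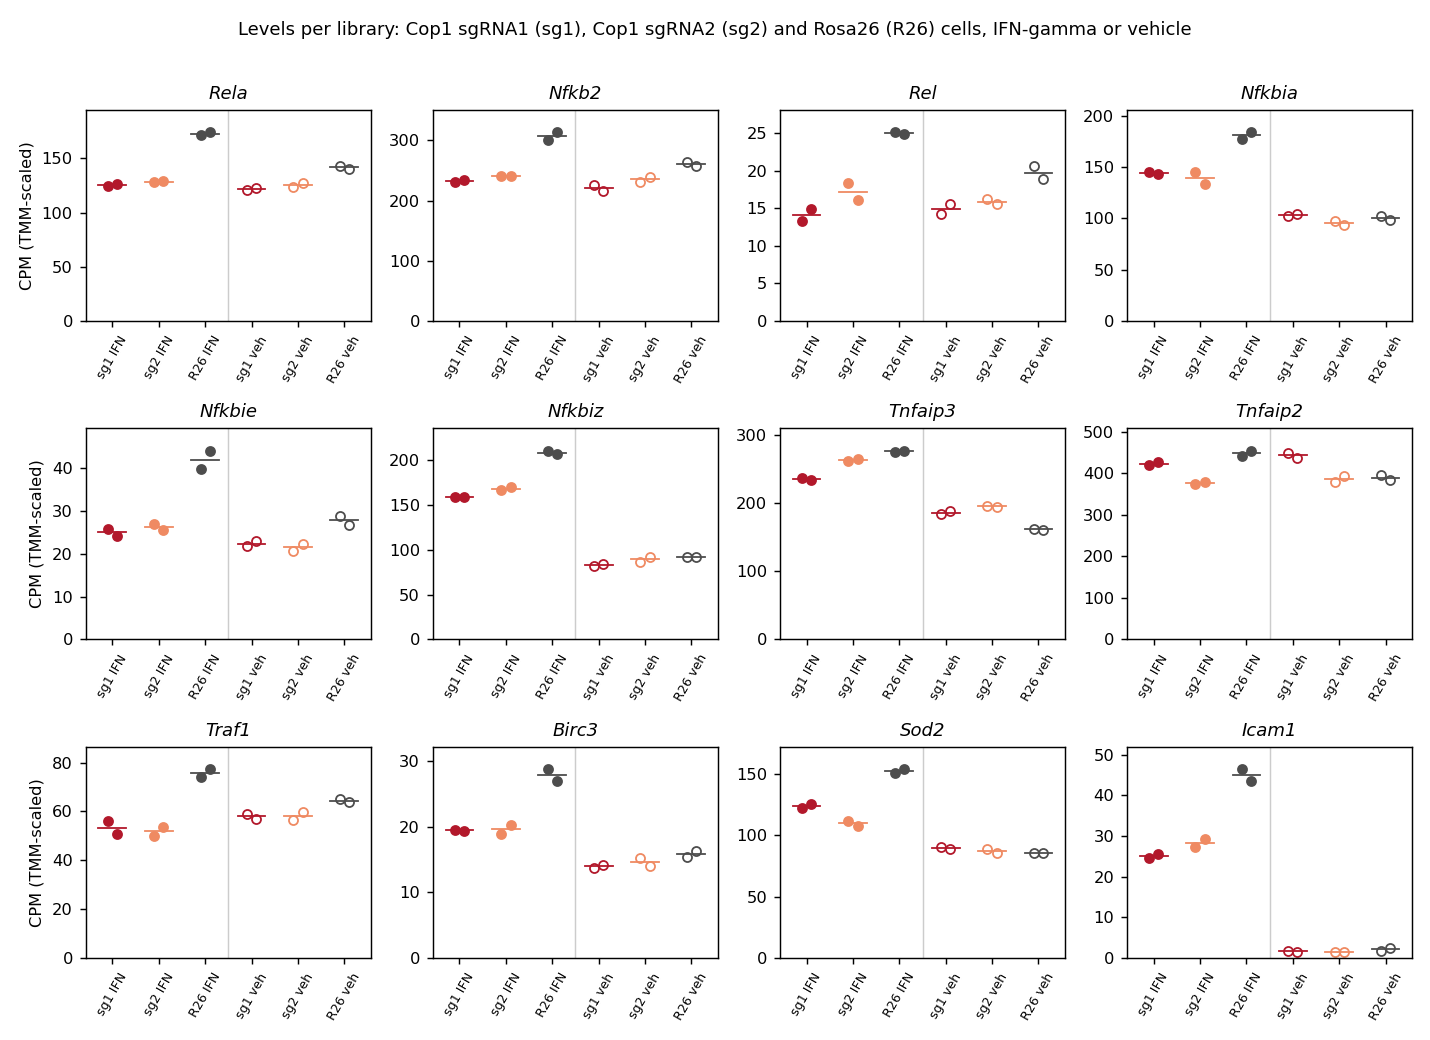
CPM of 12 genes in each of the 12 libraries (points, with the group mean as a line), for IFNγ (filled) and vehicle (open), with Cop1 sgRNA1, Cop1 sgRNA2 and Rosa26 from left to right in each. Under IFNγ the Rosa26 points are above all Cop1-guide points in every panel, and in vehicle the Rosa26 points are below all Cop1-guide points in Tnfaip3 and Sod2. All 12 belong to the 28 genes with that order of groups under IFNγ. Genes without it, such as Ripk1, Bcl3 and Cflar, are not drawn.

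Subunits and inhibitors can be set beside targets only in part, since NF-kB raises many of its own components. Among the 39 genes, 19 are textbook targets, which include 4 of the 5 subunits, 4 of the 6 IkB family genes, Tnfaip3 and Tnip1. Of these targets 17 of 19 were lower with Cop1 loss under IFNγ (median -0.39), against 11 lower and 1 higher of the other 20 (median -0.16). Over all genes tested 20.7% were called lower and 19.8% higher there. In vehicle 7 targets were lower and 2 higher (median -0.12), and 7 of the other 20 were lower (median -0.06). The shares of all genes were 19.2% lower and 16.6% higher. By role, the median under IFNγ was -0.44 for subunits, -0.40 for the IkB family, -0.19 for the brakes and -0.22 for effector targets. In vehicle it was -0.20, -0.05, -0.21 and 0.03 in that order of roles. These differences between lists were not tested, and the lists were drawn up with earlier results of these data known. The split is not sharp, since Nfkbid, Tank, Cyld, Bcl10 and Traf3 hold kappaB matches but are not among the 19.

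IFNγ raised most of the pathway in Rosa26 cells. There 31 of the 39 genes were higher than in vehicle and 1, Traf3, was lower, where 16.6% of all genes tested were called higher and 16.2% lower. The median log2 change was 0.34, against -0.01 over all genes, and 13 genes were higher by at least 1.5-fold, as were 4.68% of all genes. All 19 textbook targets were higher, and 12 of the other 20. Icam1 had the largest response, with 46.4 and 43.4 CPM with IFNγ, against 1.79 and 2.49 CPM in vehicle in Rosa26 cells, which is 21.0-fold higher (log2 change 4.40 ± 0.13, adjusted p = 6.99e-29). Tnf, the next largest, was at 4.22 and 3.47 CPM with IFNγ, against 1.21 and 1.11 CPM in vehicle (1.73 ± 0.31, adjusted p = 1.67e-05). Nfkbiz was at 209.9 and 206 CPM with IFNγ, against 91.5 and 91.9 CPM in vehicle (1.18 ± 0.04, adjusted p = 1.5e-26), and Ripk2 at 67.7 and 66.6 CPM with IFNγ, against 31.9 and 33.1 CPM in vehicle (1.05 ± 0.07, adjusted p = 4.29e-17). For all of these the IFNγ libraries were above the vehicle libraries without overlap.

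Of the 6 IkB family genes 5 rose in Rosa26 cells (median 0.64), with Nfkbia at a log2 change of 0.85 ± 0.04, Nfkbib at 0.69 ± 0.08, Nfkbie at 0.59 ± 0.08 and Bcl3 at 0.59 ± 0.14 beside Nfkbiz, and Nfkbid was not called (0.43 ± 0.19, adjusted p = 0.0727). All 3 brakes rose (median 0.37), Tnfaip3 by 0.77 ± 0.03, Tnip1 by 0.37 ± 0.05 and Cyld by 0.35 ± 0.04. All 5 effector targets rose (median 0.34), among them Sod2 by 0.84 ± 0.04. The receptor Tnfrsf1a rose by 0.83 ± 0.05. All 5 subunits rose (median 0.28), by 0.23 for Nfkb2 to 0.34 for Rel. In the kinase group Ikbke rose (0.55 ± 0.08, adjusted p = 5.12e-07), and Chuk, Ikbkb, Ikbkg and Map3k14 were not called. Over all genes tested 16.6% were called higher in this comparison. Calls that single libraries decided in Rosa26 cells were those of Relb, Rel, Birc2, Traf3, Cd40 and Vcam1. Relb had an adjusted p of 0.198 without vehicle replicate 2 and 0.292 without IFNγ replicate 1, and Rel 0.0804 without vehicle replicate 2. Birc2 had 0.141 without vehicle replicate 1 and 0.104 without IFNγ replicate 1, and Cd40 0.106 without IFNγ replicate 1. Traf3 had 0.0864 and 0.0923 without vehicle replicates 1 and 2, and 0.273 without IFNγ replicate 1. Vcam1, at the threshold (0.0462), had adjusted p-values of 0.05 to 0.288 without each of the 4 Rosa26 libraries in turn and 0.0503 with no low-count filter. DESeq2 called neither Relb (adjusted p = 0.0628), Birc2 (0.063), Traf3 (0.0631) nor Vcam1 (0.127).

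In Cop1-loss cells IFNγ raised 20 of the 39 genes and lowered 1, Traf1, against 18.1% of all genes higher and 16.1% lower. The median was 0.23, against -0.01 over all genes, and 6 genes passed 1.5-fold, as did 4.2% of all genes. All 20 genes that rose in Cop1-loss cells also rose in Rosa26 cells. Over all genes tested 1373 of the 2152 that rose in Cop1-loss cells did so (11.5% of all genes). The other 11 of the 31 that rose in Rosa26 cells were not called higher in Cop1-loss cells. That was close to the background, where 599 of the 1972 genes that rose in Rosa26 cells were not (5.03% of all genes). Of the subunits Nfkb1 alone was called (0.18 ± 0.03, adjusted p = 2.11e-07). Rela, with 0.04 ± 0.03, adjusted p = 0.311, and Nfkb2, with 0.05 ± 0.02, adjusted p = 0.0922, were not. Icam1 rose in Cop1-loss cells too, 17.4-fold (4.12 ± 0.10, adjusted p = 5.94e-32). Tnfrsf1a (0.81), Ripk1 (0.69), Ikbke (0.53), Cyld (0.38), Tank (0.30) and Cflar (0.31) rose as well, beside 0.83, 0.48, 0.55, 0.35, 0.29 and 0.34 in Rosa26 cells.

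The fall of Traf1 in Cop1-loss cells (-0.15 ± 0.04, adjusted p = 0.00588) was not called without sgRNA1 IFNγ replicate 2 (adjusted p = 0.0639) or sgRNA2 IFNγ replicate 1 (0.0569). Tnfaip2, not called there (-0.05 ± 0.02, adjusted p = 0.0656), was called lower without sgRNA2 vehicle replicate 1 (adjusted p = 0.0252), and Bcl10 (0.08 ± 0.04, adjusted p = 0.107) was called higher without sgRNA1 vehicle replicate 2 (adjusted p = 0.0311). With the libraries of a population summed, 19 genes were called in Rosa26 cells and 16 in Cop1-loss cells. Of all 11904 genes tested 1102 and 1364 were called in that order. The plot of IFNγ responses shows both.

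**Figure D4:**
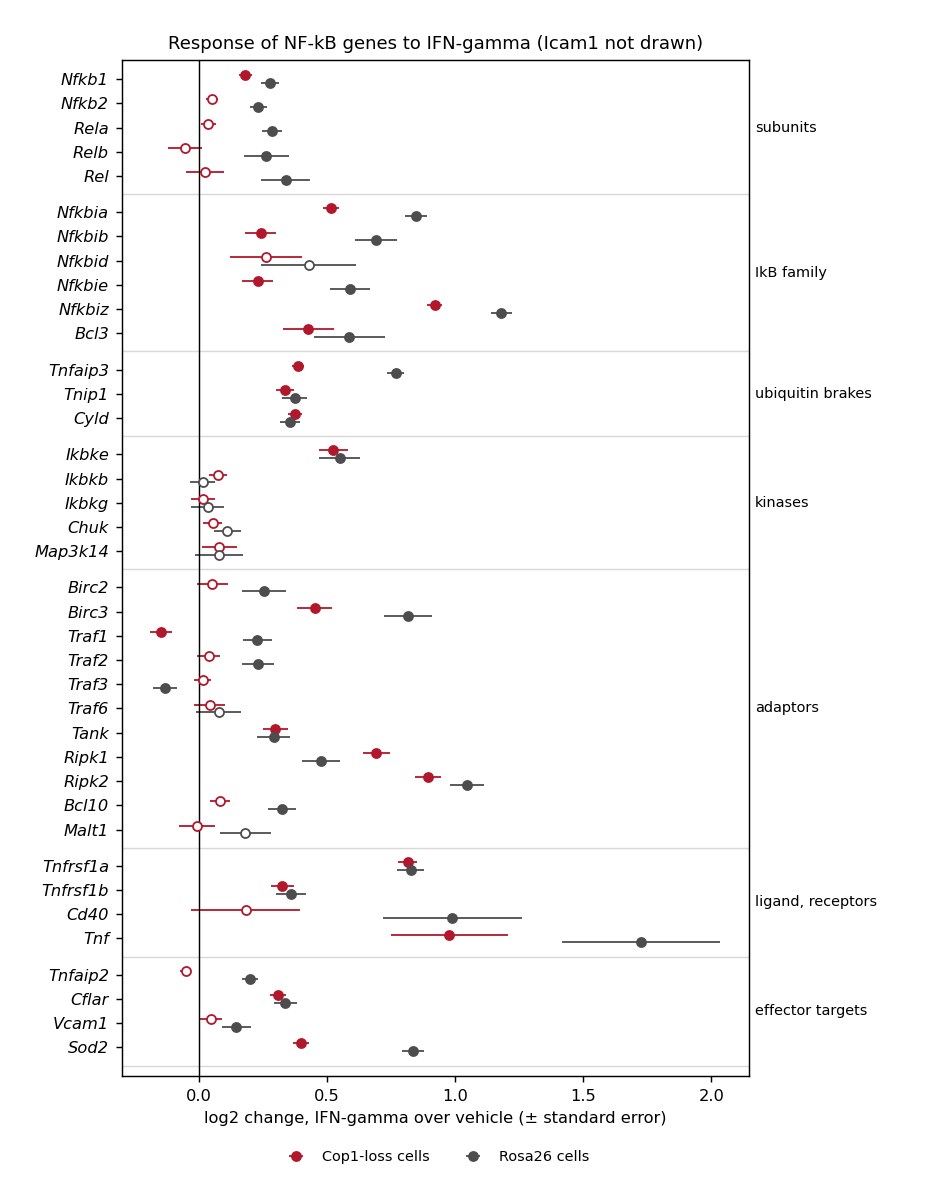
Log2 change with IFNγ over vehicle (x axis, points with standard error bars) in Cop1-loss cells (red) and Rosa26 cells (grey) for 38 genes grouped by role, filled where called. Icam1 is left out for scale, and Traf1 is the 1 gene called on both sides with opposite signs.

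The difference between these responses was tested directly. In 11 of the 39 genes the IFNγ response was smaller or more negative in Cop1-loss than in Rosa26 cells and in none was it larger, where 2.36% and 3.38% of all genes were called in those directions. Toward a larger response 2 genes had an unadjusted p under 0.05 by edgeR and 1 by DESeq2, which called 9 genes in all and none in that direction. All 11 also rose in Rosa26 cells, a combination that 2.02% of all genes had. Over all genes tested 240 of the 281 called toward a smaller response rose in Rosa26 cells too. The Rosa26 response is a term of the difference, so this overlap is partly built in. The median difference was -0.18, against 0.01 over all genes. Of the textbook targets 8 of 19 were called (median -0.31), and 3 of the other 20 (median -0.03). Tnfaip3 rose by 0.39 in Cop1-loss cells and 0.77 in Rosa26 cells (difference -0.38 ± 0.04, adjusted p = 4.27e-09). Sod2 rose by 0.40 and 0.84 in the same order (difference -0.44 ± 0.05, adjusted p = 1.36e-07), and Nfkbia by 0.52 and 0.85 (difference -0.33 ± 0.05, adjusted p = 2.54e-05). Traf1 moved in opposite directions, with -0.15 in Cop1-loss cells and 0.23 in Rosa26 cells (difference -0.38 ± 0.07, adjusted p = 0.000434). Rela had 0.04 in Cop1-loss cells and 0.29 in Rosa26 cells (difference -0.25 ± 0.05, adjusted p = 0.000449).

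Nfkbiz (-0.26 ± 0.05, adjusted p = 0.000517) and Tnfaip2 (-0.25 ± 0.04, adjusted p = 6.37e-06) were also called. The other 4 calls rested on single libraries. That of Nfkb2 (-0.18 ± 0.04, adjusted p = 0.0036) was lost when replicate 2 of Rosa26 was left out, either in vehicle (adjusted p = 0.0552) or with IFNγ (0.0561). That of Nfkbib (-0.45 ± 0.10, adjusted p = 0.00394) was lost without Rosa26 IFNγ replicate 1 (adjusted p = 0.0675). Nfkbie (-0.36 ± 0.10, adjusted p = 0.0197) was lost without Rosa26 vehicle replicate 2 (0.158) or Rosa26 IFNγ replicate 2 (0.157), and by DESeq2 (0.059). Bcl10 (-0.24 ± 0.07, adjusted p = 0.0212) was lost without Rosa26 vehicle replicate 2 (0.134), Rosa26 IFNγ replicate 2 (0.178) or sgRNA1 vehicle replicate 2 (0.0565), and by DESeq2 (0.0557). Relb, at -0.32 ± 0.11, adjusted p = 0.0754, was called without Rosa26 IFNγ replicate 2 (0.037) or sgRNA1 IFNγ replicate 2 (0.0489). Birc3, at -0.37 ± 0.12, adjusted p = 0.0542, was called without sgRNA2 vehicle replicate 2 (0.0401) or sgRNA2 IFNγ replicate 2 (0.0479). With the libraries of a population summed, edgeR called no gene of the 39 and no gene of all tested, and 11 and 546 of them had an unadjusted p under 0.05.

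The Cop1 guides were also compared with each other. In vehicle 1 of the 39 genes differed between sgRNA2 and sgRNA1, Tnfaip2, which was lower with sgRNA2 (-0.20 ± 0.03, adjusted p = 1.03e-05), where 3.41% of all genes were called lower and 2.58% higher. Under IFNγ 5 genes differed, 2 higher and 3 lower, against 5.07% and 4.33% of all genes, so that these counts were close to the background or above it. Nfkb1 (0.17 ± 0.04, adjusted p = 0.00176) and Tnfaip3 (0.16 ± 0.03, adjusted p = 0.00051) were higher with sgRNA2. Tnfaip2 (-0.17 ± 0.03, adjusted p = 0.000176), Sod2 (-0.17 ± 0.04, adjusted p = 0.00622) and Ikbke (-0.25 ± 0.08, adjusted p = 0.0381) were lower with sgRNA2. The call of Ikbke was lost without any 1 of the 4 libraries (adjusted p = 0.11 to 0.222) and by DESeq2 (0.0949). That of Sod2 was lost without sgRNA1 IFNγ replicate 2 (0.0678) or sgRNA2 IFNγ replicate 2 (0.0913). With no low-count filter Cflar was called in vehicle (adjusted p = 0.0433), and with only the groups compared in the fit Ripk2 was called under IFNγ (0.0479).

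Levels of different genes were compared as CPM per kilobase of exon, with all annotated exons of a gene merged. That length was 12061 bases for Nfkb1 and 3072 for Rela. It need not be the length of the transcript in these cells, so the order of genes is approximate. In CPM alone Nfkb1 (167) was above Rela (142) in the mean of vehicle-treated Rosa26 cells. In vehicle-treated Rosa26 cells Tnfaip2 was the highest of the 39 at 78.2, followed by Nfkbia at 62.5, Nfkb2 at 57.0 and Rela at 46.1. Rel was at 2.64 and Relb at 6.74, below Nfkb1 at 13.9. Icam1 (0.491), Cd40 (0.556) and Tnf (0.707) were the lowest. With IFNγ Icam1 reached 10.3 CPM per kilobase in Rosa26 cells and Nfkbia 112. Exons of Nfkb2 overlap those of Psd on the other strand, those of Nfkbib overlap Ccer2 and Sirt2, those of Ikbkg overlap G6pdx and those of Ripk1 overlap Serpinb6a. The strand setting of the counting is not given in the sources used here, so reads of these pairs cannot be told apart.

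Pathway genes outside the 39 were taken from 2 further lists, of which 36 of 39 other NF-kB targets and 33 of 35 other upstream genes were tested. Among the other targets 27 were lower and 2 higher with Cop1 loss under IFNγ (median -0.60), where 20.7% and 19.8% of all genes were called in those directions. In vehicle 17 were lower and 8 higher (median -0.26), against 19.2% and 16.6% of all genes. Cxcl5, a neutrophil chemokine, was at 564 and 566 CPM with sgRNA1 and 479 and 476 CPM with sgRNA2, against 1234 and 1199 CPM in Rosa26 cells under IFNγ, and at 354 and 347 CPM with sgRNA1 and 366 and 369 CPM with sgRNA2, against 707 and 686 CPM in Rosa26 cells in vehicle. Its log2 change was -1.23 ± 0.02, adjusted p = 2.2e-35 under IFNγ and -0.96 ± 0.02, adjusted p = 6.51e-31 in vehicle. Ptgs2, encoding the prostaglandin synthase COX-2, was at 498 and 506 CPM with sgRNA1 and 492 and 487 CPM with sgRNA2, against 1072 and 1066 CPM in Rosa26 cells under IFNγ. In vehicle Ptgs2 was at 439 and 434 CPM with sgRNA1 and 451 and 461 CPM with sgRNA2, against 633 and 637 CPM in Rosa26 cells. All Cop1-guide libraries were below Rosa26 in both (-1.11 ± 0.02, adjusted p = 2.2e-34 and -0.51 ± 0.02, adjusted p = 1.54e-21). The complement gene C3 was lower in both as well (-0.68 ± 0.03, adjusted p = 2.03e-22 and -0.98 ± 0.03, adjusted p = 1.43e-26).

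With IFNγ 27 of these 36 targets rose and 2 fell in Cop1-loss cells, against 18.1% and 16.1% of all genes. In Rosa26 cells 30 rose and 1 fell, against 16.6% and 16.2% of all genes. Nos2, the inducible nitric oxide synthase, rose by 4.44 ± 0.03, adjusted p = 7.32e-53 in Cop1-loss cells and by 4.23 ± 0.04, adjusted p = 1.59e-47 in Rosa26 cells. Csf3, encoding the granulocyte growth factor G-CSF, rose by 0.88 ± 0.02, adjusted p = 7.44e-34 and by 1.19 ± 0.03, adjusted p = 8.87e-33 in the same order. The level of Nos2 was lower in all Cop1-guide libraries in both treatments. Under IFNγ it was at 377 and 389 CPM with sgRNA1 and 377 and 376 CPM with sgRNA2, against 572 and 587 CPM in Rosa26 cells. In vehicle it was at 17.4 and 17.7 CPM with sgRNA1 and 17.5 and 17.2 CPM with sgRNA2, against 31.8 and 29.9 CPM in Rosa26 cells. The response differed between the cells in 18 of the 36, with 16 lower in Cop1-loss cells and 2 higher, against 2.36% and 3.38% of all genes. Cxcl1, a neutrophil chemokine, was at 600.5 and 588 CPM with sgRNA1 and 463 and 456 CPM with sgRNA2, against 791 and 744 CPM in Rosa26 cells under IFNγ, and at 355 and 344 CPM with sgRNA1 and 335 and 314 CPM with sgRNA2, against 289.7 and 301 CPM in Rosa26 cells in vehicle. Cop1-loss libraries were thus below Rosa26 with IFNγ (-0.56 ± 0.03, adjusted p = 1.41e-20) and above it in vehicle (0.19 ± 0.03, adjusted p = 1.07e-06), and the difference in response was -0.74 ± 0.04, adjusted p = 1.61e-17. Ier3, a stress-induced survival gene, had the same order of groups (-0.34 ± 0.03, adjusted p = 1.06e-14 under IFNγ and 0.21 ± 0.03, adjusted p = 2.1e-08 in vehicle, difference -0.55 ± 0.04, adjusted p = 1.51e-14).

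Among the other upstream genes 8 of 33 were lower and 6 higher with Cop1 loss under IFNγ (median -0.04), beside 20.7% and 19.8% of all genes. In vehicle 10 were lower and 6 higher (median -0.00), beside 19.2% and 16.6% of all genes. Tnip3, a relative of Tnip1, was at 2.77 and 3.65 CPM with sgRNA1 and 3.03 and 3.83 CPM with sgRNA2, against 8.36 and 9.45 CPM in Rosa26 cells under IFNγ, and at 1.53 and 1.88 CPM with sgRNA1 and 1.49 and 1.21 CPM with sgRNA2, against 4.95 and 5.25 CPM in Rosa26 cells in vehicle. It was lower in both (-1.43 ± 0.17, adjusted p = 3.34e-09 and -1.76 ± 0.20, adjusted p = 2e-09). Usp18, an interferon-induced deconjugating enzyme, was lower under IFNγ (-1.10 ± 0.11, adjusted p = 1.17e-10), and Card10, a scaffold for Bcl10, was higher (0.25 ± 0.03, adjusted p = 2.56e-09). Tlr3, the receptor for double-stranded RNA, was lower in vehicle (-0.71 ± 0.05, adjusted p = 3.9e-14), and Tnfrsf12a, the receptor of the cytokine TWEAK, was higher in vehicle (0.33 ± 0.03, adjusted p = 8.81e-13). With IFNγ 14 of the 33 rose and 3 fell in Cop1-loss cells, beside 18.1% and 16.1% of all genes, and 14 rose and 4 fell in Rosa26 cells, beside 16.6% and 16.2%. Tlr3 had the smallest p of them in both, with 1.63 ± 0.04, adjusted p = 2.59e-31 in Cop1-loss cells and 1.26 ± 0.06, adjusted p = 1.08e-22 in Rosa26 cells. The response differed in 3 of the 33, 1 lower and 2 higher in Cop1-loss cells beside 2.36% and 3.38% of all genes, with Tnfrsf12a lower in Cop1-loss cells (-0.30 ± 0.04, adjusted p = 4.27e-07), and Tlr3 (0.37 ± 0.07, adjusted p = 0.000392) and Card10 (0.19 ± 0.04, adjusted p = 0.00217) higher.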

How the data were processed

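RNA was sequenced from 12 libraries of 4T1 cells in 6 groups of guide and treatment. The authors deposited whole-number counts per gene and library, not normalized, in 1 table of all libraries. Per the submitters' processing notes, STAR 2.4.0, HTSeq, DESeq2 1.10 and the build mm10 were used. RNA was extracted with a QIAGEN kit and libraries were made with an Illumina TruSeq kit, per the labels' protocols. The sources used here do not give the annotation, the strand setting or how multi-mapping reads were counted. A row of totals was left out, and it exceeded the sum of gene counts by 360 in 1 library.

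Counts were tested with edgeR 4.0.16 (R 4.3.3, limma 3.58.1) by the quasi-likelihood F test with TMM scaling, in 1 model with a mean for each group (6 residual degrees of freedom, median prior 34.5). The filter filterByExpr (minimum count 10, minimum total 15) kept 11904 of 22298 genes. The others took up to 0.0267% of the counts in any library. The coefficient of variation between libraries beyond counting noise was 3.21%. A gene was called where its p, adjusted by Benjamini-Hochberg across the 11904 genes, was below 0.05. Cop1 loss is the mean of both guides. CPM are TMM-scaled, per library, and values after ± are standard errors of log2 changes. In each group the libraries differed by more than counting noise (chi-square per degree of freedom 2.33 to 4.21).

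The 39 genes, their roles and the further lists were chosen with earlier results of these data known. Values in every library are given for genes called in both Cop1 comparisons or in the difference of responses, and for Rela, Nfkbia, Tnfaip3 and Tnf. Those of Icam1, Cd40 and Ripk1 were added after their values were seen. Of each further list the 3 called genes with the smallest p in a comparison could be named. Exon lengths come from GENCODE vM21 (GRCm38) and promoter sequences from RefSeq (GRCm38.p6). Alternatives were DESeq2 1.42.0, RLE size factors, no low-count filter, a fit to only the groups compared, a replicate block, leaving out each library, summing the libraries of each population, and a 1.5-fold minimum.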

Additional observations from a re-analysis of the deposited data

Results flagged for a closer look

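For 11 of the 39 genes the response to IFNγ differed between Cop1-loss and Rosa26 cells by the test of the difference itself (edgeR interaction contrast), and each difference was negative, that is, the log2 response in Cop1-loss cells was below that in Rosa26 cells. Among the subunits it was -0.18 (adjusted p = 0.0036) for Nfkb2 and -0.25 (adjusted p = 0.000449) for Rela. Among the IkB family it was -0.33 (adjusted p = 2.54e-05) for Nfkbia, -0.45 (adjusted p = 0.00394) for Nfkbib, -0.36 (adjusted p = 0.0197) for Nfkbie and -0.26 (adjusted p = 0.000517) for Nfkbiz. For the brake Tnfaip3 it was -0.38 (adjusted p = 4.27e-09), for the adaptor Traf1 -0.38 (adjusted p = 0.000434) and for the adaptor Bcl10 -0.24 (adjusted p = 0.0212). The effector targets Tnfaip2 and Sod2 had -0.25 (adjusted p = 6.37e-06) and -0.44 (adjusted p = 1.36e-07). Traf1 is the 1 gene of these whose response was called with opposite signs, lower with IFNγ in Cop1-loss cells and higher in Rosa26 cells. All 11 responses of Cop1-loss cells come from the same 8 libraries, and all 11 of Rosa26 cells from the same 4. The calls of Nfkb2, Nfkbib, Nfkbie and Bcl10 were each lost in at least 1 fit that left out 1 library. With the libraries of a population summed 0 of the 11 were called, as were 0 of all genes tested. At the 1.5-fold minimum 0 of the 11 were left.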

How the results depend on the processing

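No called result changed direction under any alternative run, and RLE size factors changed no call of the 39 genes. Summing the libraries of each population left 17 of 29 genes called with Cop1 loss under IFNγ (1397 of 4828 over all genes), 3 of 16 in vehicle (865 of 4258), 19 of 32 for IFNγ in Rosa26 cells (1102 of 3900), and 0 of 11 for the difference in response (0 of 683). For IFNγ in Cop1-loss cells it left 1364 of 4073 over all genes. It could not be fitted for the guides against each other. The 1.5-fold minimum left 5 members (684 of all genes) with Cop1 loss under IFNγ, 0 (563) in vehicle, 13 (843) for IFNγ in Rosa26 and 6 (737) in Cop1-loss cells, 0 (69) for the difference in response, and 0 between the guides in vehicle (50) and under IFNγ (46). DESeq2 called 434 genes in all for the difference in response, against 683, and 460 and 735 between the guides in vehicle and under IFNγ, against 713 and 1120. With no low-count filter 2 members instead of 1 differed between the guides in vehicle, and with only those groups in the fit 464 genes did. Leaving out 1 library gave 348 to 733 genes for the difference in response, 1 to 2 members and 349 to 686 genes between the guides in vehicle, and 3 to 4 members and 422 to 732 genes under IFNγ. It gave 24 to 28 members with Cop1 loss under IFNγ, 13 to 18 in vehicle, 27 to 31 and 20 to 22 for IFNγ in Rosa26 and Cop1-loss cells, and 8 to 12 for the difference in response. The replicate block called 29, 17, 32, 21 and 11 members in these 5 comparisons in that order, against 29, 16, 32, 21 and 11 without it, and changed the call of Tnfrsf1b in vehicle alone among the 39. Replicate numbers were not taken to pair the libraries, since same-numbered deviations correlated at -0.0298 to 0.0446 over 15 pairs of groups. The cause of these changes was not tested. Genes with few counts, such as Tnf, Cd40 and Nfkbid, limit what could be called.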
